A study of Mus musculus with 18 samples.

Results

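Long non-coding RNA (lncRNA) genes that stand clear of protein-coding genes were examined for 5 histone marks in mouse embryonic stem cells. A gene was a member when RefSeq (GRCm38) gave it a non-coding biotype, when it lay on chromosomes 1 to 19 and was 2 kb or longer, and when its body did not touch any protein-coding gene extended by 2 kb on each side. This rule kept 6154 of the 11061 lncRNA genes of 2 kb or longer, out of 29431 lncRNA and protein-coding genes of that length. Of the 4907 that were removed, 4031 overlapped a coding gene and 876 lay within 2 kb of one. Member genes had a median length of 10.33 kb, and their median gap to the nearest coding gene was 44.38 kb. At the length limit, Gm36441 (2000 bp) and 1700080G11Rik (2002 bp) were just inside and Gm38868 (1999 bp) and Gm31715 (1994 bp) just outside. At the gap limit, Gm34654 (2008 bp) and Gm46846 (2010 bp) were inside, and Gm32861 (1996 bp) and 4930455G09Rik (1995 bp) were outside. A start site was listed for 4654 members, and start sites of the other 1500, which include every member on chromosome 18, were not analysed here. Among the members, 943 overlapped another member, so their windows are partly shared.

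The cells were E14, a mouse embryonic stem cell line kept undifferentiated in 2i/LIF medium, which contains inhibitors of GSK3 and MEK and the cytokine LIF. The study addressed how methylation of H3K27 and H3K36 is distributed along the genome and how both change when EZH2 is blocked. Chromatin immunoprecipitation sequencing was deposited as 18 libraries in 9 groups of 2 replicates. In 10 libraries, cells without treatment and chromatin without a spike-in were precipitated for H3K27me1, H3K27me2, H3K27me3, H3K36me2 or H3K36me3. The other 8 libraries were quantitative: cells received 10 µM of the EZH2 inhibitor EPZ-6438 (EZH2i) or the solvent DMSO for 7 days, Drosophila S2 chromatin was added at 0.05% as a spike-in, and H3K27me3 or H3K36me2 was precipitated. All groups are 1 cell line, and the labels do not say whether replicates were separate cultures, so p-values measure the spread between these libraries only. In units of 1000000 (M), the H3K27me3 libraries of inhibitor-treated cells held 0.976 and 1.75 M autosomal window reads, and the 16 remaining libraries 21.3 to 109.8 M. In the untreated libraries all 7 pluripotency markers found, Pou5f1 and Nanog among them, carried H3K36me3 bodies at 4.46 to 7.65 times the genome mean. None of 4 endoderm (up to 1.90) and none of 4 fibroblast markers (up to 1.93) reached 2 times, and 1 of 3 mesoderm and 1 of 4 neural markers did. H3K27me3 reached 3 times at 1 of 7 pluripotency, 1 of 1 endoderm, 2 of 2 mesoderm, 4 of 4 neural and 1 of 2 fibroblast start sites listed.

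Long non-coding RNAs are transcribed by RNA polymerase II and often spliced, but are not translated into a long protein; many act in the nucleus, and some serve mainly as hosts from which small nucleolar RNAs or microRNAs are cut. Polycomb repressive complex PRC2, through its enzyme EZH2 or EZH1, places methyl groups on H3K27, and its trimethylated form covers CpG-dense promoters of silent developmental genes in stem cells. H3K36me3 is placed along genes during transcription by SETD2, whereas H3K36me2 is placed over broad regions by NSD enzymes. In the values below, a level is the mean number of reads per 1 kb window divided by the mean over all autosomal windows of that library, so that 1 is the genome mean. A start site is called H3K27me3-marked when the windows within 1 kb of it reached 3 times the genome mean in both untreated H3K27me3 libraries, and a body is called H3K36me3-marked at 2 times in both untreated H3K36me3 libraries.

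Promoters of 4 members show the range of sequence that lies under these marks. Each is the RefSeq (GRCm38.p6) stretch from 250 bases before to 50 bases after the most upstream listed start, with every CG dinucleotide in capitals. Mir9-3hg carried both marks, Gm38751 had the highest H3K27me3 start site of all members, and Snhg15 and Platr14 had H3K36me3-marked bodies.
Mir9-3hg (H3K27me3-marked and H3K36me3-marked; chr7:79499776-79500075, + strand): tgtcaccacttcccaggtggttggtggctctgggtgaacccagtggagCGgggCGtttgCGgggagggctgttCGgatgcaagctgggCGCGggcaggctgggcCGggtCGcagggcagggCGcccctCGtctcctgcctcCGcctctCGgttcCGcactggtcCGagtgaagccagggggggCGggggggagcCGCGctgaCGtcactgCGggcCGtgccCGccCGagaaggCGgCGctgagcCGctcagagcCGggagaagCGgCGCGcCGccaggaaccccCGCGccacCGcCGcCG
Gm38751 (H3K27me3-marked; chr5:147221816-147222115, - strand): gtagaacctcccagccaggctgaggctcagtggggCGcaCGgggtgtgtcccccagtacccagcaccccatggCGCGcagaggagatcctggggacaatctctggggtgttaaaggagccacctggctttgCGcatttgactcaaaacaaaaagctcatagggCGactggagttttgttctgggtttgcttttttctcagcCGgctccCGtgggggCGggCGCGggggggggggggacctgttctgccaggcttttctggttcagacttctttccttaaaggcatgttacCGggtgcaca
Snhg15 (H3K36me3-marked; chr11:6528711-6529010, - strand): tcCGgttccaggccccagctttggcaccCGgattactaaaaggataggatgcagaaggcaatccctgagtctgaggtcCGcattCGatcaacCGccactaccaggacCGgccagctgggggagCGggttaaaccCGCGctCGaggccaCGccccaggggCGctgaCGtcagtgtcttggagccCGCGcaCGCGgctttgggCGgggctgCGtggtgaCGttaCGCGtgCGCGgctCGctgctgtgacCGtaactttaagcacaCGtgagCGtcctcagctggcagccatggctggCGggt
Platr14 (H3K36me3-marked; chr2:104559209-104559508, + strand): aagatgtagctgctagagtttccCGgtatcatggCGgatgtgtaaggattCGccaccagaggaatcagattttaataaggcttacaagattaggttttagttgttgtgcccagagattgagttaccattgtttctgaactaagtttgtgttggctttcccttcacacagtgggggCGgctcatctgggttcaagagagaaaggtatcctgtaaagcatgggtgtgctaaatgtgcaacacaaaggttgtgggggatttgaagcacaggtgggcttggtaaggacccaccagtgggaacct
The motif CG reads the same on both strands. It occurred 35 times in the Mir9-3hg promoter and 29 times in that of Snhg15, but 12 times in that of Gm38751 and 4 times in that of Platr14. A promoter was called CpG-rich when its GC content was at least 50% and its ratio of observed to expected CG at least 0.6. Mir9-3hg (ratio 0.84) and Snhg15 (0.927) met this, and Gm38751 (0.462) and Platr14 (0.264) did not. So among these 4 genes, promoters that met the limit and promoters that did not occurred both with an H3K27me3-marked start and with an H3K36me3-marked body. Gm38751 missed the limit by its ratio only, at a GC content of 59.33%. Its 12 CG were above the median of 3 over all lncRNA promoters.

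MicroRNA hairpins listed in the RefSeq table used here lay inside 45 members, 73 distinct hairpins in all, of which 2 lay inside more than 1 member. Mature RefSeq sequences from 5 hosts that lie on the H3K27me3 or the H3K36me3 side are shown 5′ to 3′, with the seed (bases 2 to 8), which pairs with target messages, in capitals. The first 3 come from hosts whose bodies reached 3 times the genome mean in H3K27me3 in both untreated libraries: Mir9-3hg and Gm3764 both hold miR-9, a neuronal microRNA, and Lncppara holds 2 let-7 genes.
mmu-miR-9-5p: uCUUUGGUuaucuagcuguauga
mmu-let-7b-5p: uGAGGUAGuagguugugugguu
mmu-let-7c-5p: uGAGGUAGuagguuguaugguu
The other 4 come from hosts with H3K36me3-marked bodies, Mirc35hg for the first 3 and Mir17hg for the last.
mmu-miR-182-5p: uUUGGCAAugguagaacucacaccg
mmu-miR-96-5p: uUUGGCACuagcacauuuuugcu
mmu-miR-183-5p: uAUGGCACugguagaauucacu
mmu-miR-92a-3p: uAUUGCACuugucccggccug
The 2 let-7 forms share the seed GAGGUAG, and the other 5 seeds differ from one another. These 5 hosts were chosen after their values were seen and are not the most extreme ones: H19 and Gm10505 had higher H3K27me3 bodies, and Snhg20, Gm51876 and Mirg had higher H3K36me3 bodies, and these 5 are described further below. Among the 45 hosts, 6 (13.3%) reached 3 times the genome mean in H3K27me3 over the body, close to the 12.45% of all 6154 members. H3K36me3-marked were 11 (24.4%), against 4.339% of all members, and 30 met neither limit.

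In untreated cells the clearest feature of lncRNA bodies was little H3K36me3. The mean level over the 6154 bodies was 0.890 ± 0.0041 (SD, n = 2 libraries), against 2.79 ± 0.099 over 18369 protein-coding bodies. Within each library the ratio of lncRNA to coding bodies was 0.328 and 0.310. H3K27me1, which also follows transcribed coding bodies, was 1.02 ± 0.027 over lncRNA bodies and 1.45 ± 0.17 over coding ones. Mean levels of the other marks lay close together, with 1.25 against 1.29 for H3K27me2 and 1.549 against 1.495 for H3K36me2.

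H3K27me3 was spread differently in the 2 kinds of gene although its means were near each other. The body mean was 1.62 ± 0.042 over lncRNA genes and 1.51 ± 0.023 over coding genes, but the median gene was at 1.22 among lncRNA genes and 0.587 among coding genes. At start sites the mean was lower in lncRNA genes (1.83 ± 0.077 against 2.01 ± 0.0051) and the median higher (1.31 against 0.486), so mean and median differ in sign. The start-site mean was also higher in lncRNA genes (log2 ratio 0.04 against -0.13) when only genes of 3.12 to 46.75 kb were kept in both sets. The typical isolated lncRNA gene thus sat above the genome mean in H3K27me3 and the typical coding gene below it. With 2 libraries a mark and different antibodies between marks, these untreated values are described without a test.

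**Figure D1:**
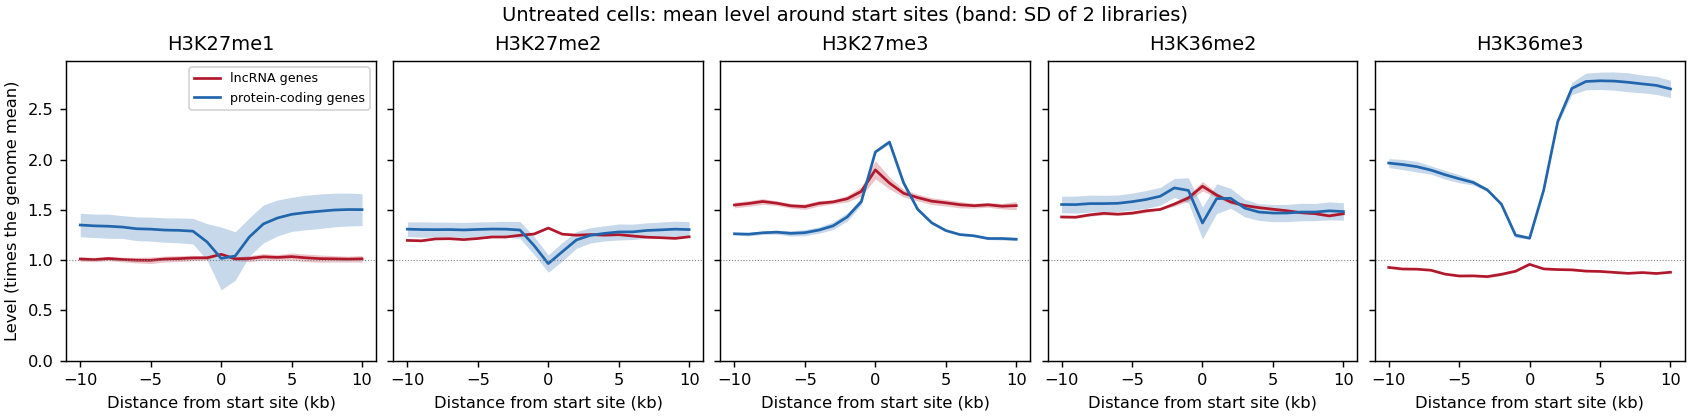
Mean level in untreated cells (vertical axis, times the genome mean) against distance from the start site in kb (horizontal axis) for 5 marks, with lncRNA genes in red and protein-coding genes in blue; bands are the SD of 2 libraries. H3K36me3 of coding genes climbs from 1.22 at the start to 2.78 at 5 kb downstream, while that of lncRNA genes moves only from 0.958 to 0.887. H3K27me3 of lncRNA genes is 1.90 at the start and still 1.54 at 10 kb, where coding genes are at 1.21. Genes that end before a given distance are included there, and the median member is 10.33 kb long.

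The plot of levels by distance shows the shape of these differences. Genes shorter than a given distance were kept, so some downstream windows lie beyond the end of the gene. In coding genes, H3K27me3 formed a sharp peak, from 2.07 at the start site to 1.29 at 5 kb downstream. Around lncRNA starts it rose over a plateau, from 1.55 at 10 kb upstream to 1.90 at the start and 1.57 at 5 kb downstream. H3K36me3 over lncRNA genes had no step at the start, with 0.890 at 1 kb upstream, 0.958 at the start and 0.913 at 1 kb downstream.

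By the authors' deposited peak lists, H3K27me3 covered more lncRNA than coding start sites, the order of the medians and not of the means. Of 4654 lncRNA start sites, 47.08% lay in an H3K27me3 peak, against 33.29% of 14541 coding start sites. An H3K27me2 peak held 46.76% against 33.81%, and an H3K27me1 peak 19.49% against 28.53%. An H3K36me2 peak held 57.39% against 56.41%. Both an H3K27me3 and an H3K36me2 peak held 32.72% of lncRNA starts and 22.87% of coding starts, and none of the 4 lists held 24.8% and 25.74%.

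Strong marking was less frequent than peak overlap. H3K27me3-marked start sites numbered 755 of 4654 in lncRNA genes (16.22%) and 3097 of 14541 in coding genes (21.3%). H3K36me3-marked bodies numbered 199 of those 4654 lncRNA genes (4.276%) and 7067 of the coding genes (48.6%). Both marks were found in 27 lncRNA genes, and 3727 (80.08%) had neither. Members close to the H3K27me3 limit were LOC108168713 (3.01 and 3.11 in the 2 libraries) and Gm32627 (3.01 and 3.02) above it, and LOC115485727 (3.71 and 2.98) and Gm13850 (3.57 and 2.98) below it.

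**Figure D2:**
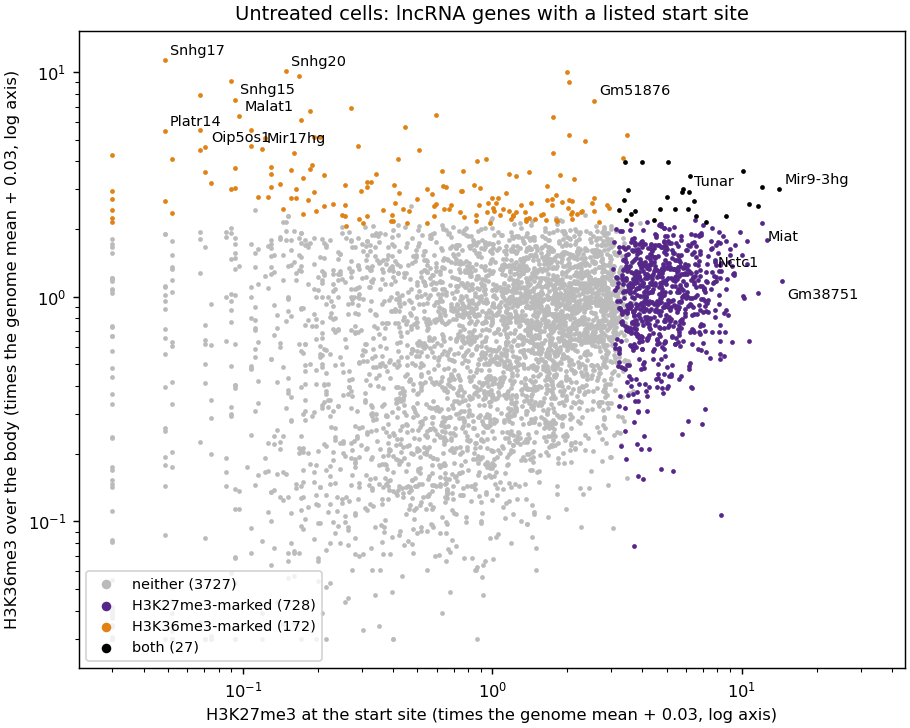
Each point is 1 of 4654 lncRNA genes with a listed start site, placed by untreated H3K27me3 at the start site (horizontal log axis) and untreated H3K36me3 over the body (vertical log axis), both the mean of 2 libraries in times the genome mean plus 0.03. Host genes such as Snhg17 and Snhg20 lie at the upper left, Gm38751 and Miat at the right, and 27 genes that pass both limits, with Mir9-3hg and Tunar among them, are in the upper right.

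The plot of both marks for every member shows the 27 genes with both. They are 13.6% of the H3K36me3-marked genes, where 16.22% of all members are H3K27me3-marked, and 3.58% of the H3K27me3-marked genes, where 4.276% of all are H3K36me3-marked, so the overlap is near the background share of each mark. The classes differed in the other marks too, which had no part in choosing them. H3K36me2 over the body was 2.68 ± 0.22 in the 172 genes marked only by H3K36me3, 1.83 ± 0.012 in the 728 marked only by H3K27me3 and 1.42 ± 0.0068 in the 3727 with neither. H3K27me1 was 2.02 ± 0.22, 0.919 ± 0.029 and 0.994 ± 0.044 in the same order. H3K27me2 was 1.75 ± 0.18, 1.31 ± 0.041 and 1.21 ± 0.0039.

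Across the 6154 bodies, H3K36me2 and H3K36me3 ran closely together, with a mean Spearman rho of 0.887 over pairs of untreated libraries. Among coding bodies it was 0.347. H3K27me3 and H3K36me3 had a rho of 0.404 among lncRNA bodies and -0.246 among coding bodies. H3K36me3 also had a rho of 0.739 with H3K27me2 and 0.597 with H3K27me1 among lncRNA bodies (0.363 and 0.790 among coding bodies). These correlations are across genes, which are not independent replicates, and all points of a pair share the same 2 libraries and their depth. Gene length and the ease of mapping reads were not held fixed, and their part was not tested. H3K27me1 and H3K27me3 were nearly unrelated among lncRNA bodies (0.013) and opposed among coding bodies (-0.370). H3K27me2 over lncRNA bodies had a rho of 0.852 with H3K36me2 and 0.398 with H3K27me3.

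Mean levels were lower in longer lncRNA genes for all 5 marks. H3K27me3 was 2.00 ± 0.070 over the 1494 lncRNA bodies of 2 to 5 kb, 1.66 ± 0.043 at 5 to 20 kb, 1.27 ± 0.019 at 20 to 100 kb and 0.941 ± 0.019 over the 160 bodies of 100 kb or longer. Between the shortest and longest classes, H3K36me2 went from 1.84 ± 0.065 to 0.743 ± 0.046 and H3K36me3 from 1.07 ± 0.0059 to 0.419 ± 0.015. The long lncRNA genes were therefore below the genome mean in all 5 marks, with 0.819 for H3K27me1 and 0.888 for H3K27me2. By the mean, coding genes of 100 kb or longer were above it in all 5, with the lowest mean, 1.15, in H3K27me1. Their median H3K27me3 was nevertheless below it, at 0.788, against 0.707 in lncRNA genes of that length.

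CpG-rich promoters were rare among these lncRNA genes. They numbered 147 of 4654 (3.159%), against 7600 of 14541 coding genes (52.27%). At least 1 CG was present in 91.6% of lncRNA promoters and 97.17% of coding promoters. Of the 755 H3K27me3-marked lncRNA start sites, 38 (5.033%) were CpG-rich, and of the 199 with H3K36me3-marked bodies 26 (13.07%) were. Read the other way, 25.85% of CpG-rich and 15.91% of other lncRNA start sites were H3K27me3-marked, and 17.69% and 3.838% had H3K36me3-marked bodies. By this limit coding genes had the opposite order for H3K27me3: 18.63% of CpG-rich and 24.22% of other coding starts were marked, and 45.72% of the marked ones were CpG-rich. The median start-site level was lower at CpG-rich starts in both kinds of gene, 0.846 against 1.31 in lncRNA genes and 0.241 against 0.991 in coding genes. So 717 of the 755 marked lncRNA starts were outside CpG-rich sequence by this measure, which reads only 300 bases at a predicted or curated start.

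The 10 highest H3K27me3 start sites were led by Gm38751 and 2 hosts of miR-9. Gm38751 (chr5:147217824-147221865), 26.88 kb from the neural homeobox gene Gsx1, stood at 13.4 and 15.5 times the genome mean in the 2 untreated libraries. Mir9-3hg (chr7:79500026-79534403) stood at 13.5 and 14.7, and Gm3764, the host of Mir9-1, at 11.3 and 13.9. Miat (chr5:112213228-112228948), a nuclear lncRNA of neurons and retina, was at 12.15 and 11.96. All 4 were several times above the limit in both libraries.

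Mir1a-1hg, by name the host of a heart and muscle microRNA, was at 10.3 and 12.9, with Gata5, a heart and endoderm factor, as its nearest coding gene. Gm13344 lay 13.24 kb from Ptf1a, a regulator of pancreas and cerebellum, and had 11.7 and 11.5. Gm10505 (13.0 and 10.9) and Gm35007 (11.6 and 9.74) share a stretch of chromosome 17 near the glutamate receptor gene Grm4, and LOC108168361 had 10.4 and 10.6. The tenth, LOC115490388, differed from the rest. Its start site was at 12.3 and 8.98, but its body at 1.12 and 0.822, and the same start-site windows also stood at 4.67 in H3K36me2 and 4.53 in H3K36me3.

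The 10 highest H3K36me3 bodies included 3 of the listed hosts of small nucleolar RNAs, 2 of them at the top. Snhg17 (chr2:158353700-158361522) stood at 10.4 and 12.1 times the genome mean and Snhg20 (chr11:117076783-117078955) at 10.2 and 9.92, while Snhg15 (chr11:6525591-6528760), at 7.34 and 7.66, lay below 5 of the genes named next. In all 3 hosts the H3K27me3 body level was 0.19 or less in each untreated library. Also high were 1110038B12Rik (8.97 and 10.1), AU020206 (8.59 and 9.51), 5430416N02Rik (8.16 and 7.53) and Gm38962 (6.09 and 7.71). Gm51876, 2.279 kb from Hoxb9 and host of Mir196a-1, had 7.02 and 7.84. Gm51701 (9.74 and 10.2) and Gm40904 (9.03 and 8.95) stood apart, because H3K27me1 was at 12.4 and 12.7 there, H3K27me2 at 4.77 and 7.26 and H3K27me3 at 2.40 and 2.08; whether reads of several genome copies pile up there was not tested. No member reached 5 times the genome mean in all 10 untreated libraries.

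Known lncRNA genes were grouped by function from a list of names, many of which overlap coding genes and so did not meet the rule. Of 20 small nucleolar RNA hosts listed, 5 were members (Snhg4, Snhg11, Snhg15, Snhg17 and Snhg20), and all 5 had H3K36me3-marked bodies and none of the 4 with a listed start was H3K27me3-marked there, as the plot of known genes shows. Their median H3K36me3 level was 7.50, against 0.758 for all members. Of 12 nuclear lncRNAs listed, 8 were members, 5 with H3K36me3-marked bodies and 2 of the 4 with a listed start H3K27me3-marked. Malat1, an abundant transcript of nuclear speckles, had 6.73 and 5.95 in H3K36me3, Oip5os1, which binds miR-7, 4.66 and 4.53, and Neat1, the scaffold of paraspeckles, 4.34 and 4.38. Trp53cor1, beside the p21 gene Cdkn1a, had 3.07 and 2.84. These 4 had 0.32 or less in H3K27me3, while Miat and Lncpint, with start sites at 12.1 and 8.10, were the H3K27me3-marked pair.

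Among lncRNAs tied to pluripotency, 15 were members, and 7 had H3K36me3-marked bodies. Platr14 had 5.41 in both libraries, Platr4 5.54 and 4.60, Platr3 3.79 and 3.36, and Lncenc1, a transcript abundant in naive stem cells, 3.04 and 2.94. The other 8 did not pass the mark's limit in both libraries, with Platr30 lowest at 0.03 in each. Tunar, which is needed for stem cell identity and acts in neural differentiation, was the 1 gene of this group with an H3K27me3-marked start (4.38 and 7.83), and its body also had 3.26 and 2.54 in H3K36me3. Both marks at 1 gene in a population of cells can come from the same or from different alleles or cells, which these data cannot tell apart.

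Of 3 imprinted members, H19 had 9.14 and 9.52 in body H3K27me3 and 1.30 and 1.80 in H3K36me3, Nctc1 near it 5.69 and 5.01 in body H3K27me3, and Mirg of the Dlk1-Dio3 cluster 5.80 and 6.77 in H3K36me3. Of 10 microRNA hosts on the list, which goes by gene name and not by the hairpin table, 2 of the 7 with a listed start were H3K27me3-marked and 4 of the 10 had H3K36me3-marked bodies. Mir9-3hg was in both classes, and Carmn, known as the smooth muscle host of miR-143 and miR-145, had 4.06 and 4.07 in body H3K27me3 and 2.31 in H3K36me3 in both libraries. Mir17hg, the host of a growth-promoting microRNA cluster, had 5.67 and 3.38 in H3K36me3, with at most 0.12 in H3K27me3. Of 6 developmental members, Paupar beside Pax6 had 6.17 and 6.37 in body H3K27me3, Pantr2 beside Pou3f3 4.94 and 5.72, and Hotair of the HoxC cluster 1.73 in both. Bvht, a cardiac lncRNA, had 0.16 and 0.13 in H3K27me3 but 3.70 and 4.51 in H3K36me3.

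Marked lncRNA genes tended to have a marked coding gene next to them. Of the 3672 members whose nearest coding gene had a listed start, 586 were H3K27me3-marked, and 269 of these (45.9%) had an H3K27me3-marked neighbour. Of the 3086 unmarked, 890 (28.84%) did. The contrast was widest at gaps of 2 to 10 kb, with 54.62% against 22.14%, and was 38.6% against 34.13% at 200 kb or more. Across genes, the Spearman rho between the 2 start sites fell from 0.442 to 0.067 over the same range. The corresponding rho for body H3K36me3 was 0.527 and 0.456. All points share the untreated libraries and their depth, and base composition of neighbours was not compared. H3K36me3-marked lncRNA bodies thinned out with distance, from 8.044% at 2 to 10 kb to 0.332% (2 genes) at 200 kb or more.

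**Figure D3:**
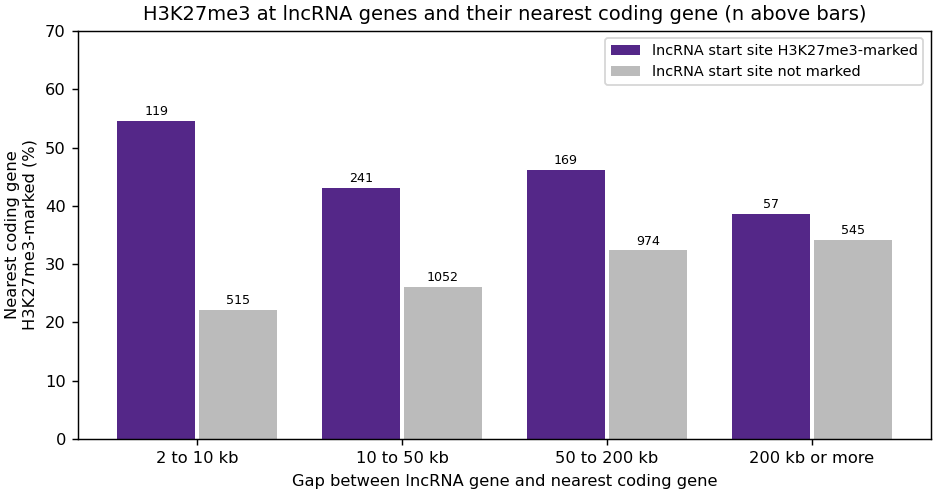
Percentage of nearest coding genes with an H3K27me3-marked start site (vertical axis) by the gap to the lncRNA gene (horizontal axis), for lncRNA genes that are marked (purple) or not (grey), with the number of lncRNA genes above each bar. At 2 to 10 kb the bars stand at 54.62% and 22.14%, and at 200 kb or more at 38.6% and 34.13%.

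After 7 days of EZH2 inhibitor, H3K27me3 was lower over nearly every lncRNA body that could be tested. By limma on log2 of scaled reads plus 1, 6003 of 6006 tested bodies were lower at an adjusted p under 0.05 and none higher, where 99.9% of all 28667 genes tested were called lower; none was higher at an unadjusted p under 0.05 or by limma-voom, which called all 6006 lower. The share in lncRNA genes is therefore that of the genome. The 3 not called were 2410018L13Rik, Gm35607 and 2410080I02Rik (log2 changes -0.42, -0.96 and -1.76). At start sites 4213 of 4218 were lower, against 99.4% of all genes tested. These directions rest on the deposited scale factor, which is assumed to be a spike-in factor. On library totals 349 of 6006 member bodies were called higher and 575 lower, against 7438 and 2100 of all 28667 genes tested. On simulated reads, however, that scale also called unchanged genes. After centring each library on its median gene, 1740 members were called higher and 3111 lower, against 12158 and 12464 of all genes tested.

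On the deposited scale, assumed to carry the authors' spike-in factor, the mean over lncRNA bodies was 70.8 ± 15.4 scaled reads per window in DMSO. After the inhibitor it was 0.108 ± 0.025 (SD, n = 2), 656.5-fold lower. The genome mean was 535.4-fold lower and coding bodies 419.9-fold lower. The median log2 change of members was -5.60, and that of all genes -5.20; these are on the log2(value + 1) scale, which understates the change of genes that are low. The inhibitor libraries were shallow: the median lncRNA body held 5 and 8 window reads in them and 109 and 142 in DMSO, and the median start site 1 read in each. Single-gene levels after the inhibitor are therefore imprecise, and averages over classes are used below.

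The 5 members with the greatest fall were Gm35007, Gm52050 near the kidney stroma factor Foxd1, Gm13003, Gm36023 and Gm52798 near the homeobox gene Hmx1. In DMSO, Gm35007 had 790.4 and 589.8 scaled reads per window, and 0.726 and 0.297 remained with inhibitor. By limma this was a log2 change of -8.84 with an SE of 0.27 (adjusted p = 1.29e-09). The others had log2 changes from -8.65 to -8.41, and 1 of the 5, Gm52798, was not called on library totals (log2 change -1.45). Gm52050 went from 534.9 and 390.9 to 0.242 and 0.0495, and these last values rest on 2 and 1 reads. The 5 were taken from called members whose groups do not overlap, so their separation was a condition of the choice. Because the value of 1 is added, the size of a change depends on the DMSO level as well as on what remained. H19 went from 621 and 511 scaled reads to 1.57 and 1.29, Mir9-3hg from 370.7 and 284.6 to 0.833 and 1.14, and Malat1, low from the start, from 5.94 and 5.30 to 0.277 and 0.198 (log2 change -2.42, limma adjusted p = 1.752e-06). Per group, H3K27me3 was called lower in 3 of 3 imprinted, 7 of 7 nuclear, 5 of 5 small nucleolar RNA host, 9 of 9 microRNA host, 13 of 13 pluripotency and 6 of 6 developmental members that could be tested, as in 99.9% of all genes tested, so these counts do not set the groups apart.

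What the scale factor cannot affect is the distribution of the remaining reads within a library. Relative to the genome mean, H3K27me3 over all lncRNA bodies was 1.59 in both DMSO libraries and 1.31 and 1.29 after the inhibitor. For coding bodies the order was the opposite, with 1.76 and 1.73 in DMSO and 2.18 and 2.29 after it. The lncRNA to coding ratio was thus 0.907 and 0.919 in DMSO and 0.599 and 0.562 after the inhibitor, a log2 change of -0.65, with no overlap between groups. Its size depends on how genes are averaged: it was -1.23 with the median over genes and -0.42 with reads summed over all windows. An exact two-sided permutation test gave p = 0.333, which is the smallest value that 2 libraries against 2 allow, so no comparison of this kind can pass 0.05.

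The remaining reads were distributed differently between classes of lncRNA gene. Both classes were set in untreated libraries, which have no part in these values. The 728 genes marked only by H3K27me3 went from 3.67 and 3.68 times the genome mean to 2.27 and 2.16. The 172 marked only by H3K36me3 went from 1.15 and 1.10 to 2.28 and 2.38, so that after the inhibitor these 2 classes were at about the same level. The 3727 with neither mark went from 1.20 and 1.20 to 1.06 and 1.05, and the 27 with both marks from 5.32 and 5.34 to 5.12 and 5.07. Within the libraries, the ratio of marked to other lncRNA bodies was 3.12 and 3.13 in DMSO and 2.13 and 2.03 after the inhibitor, without overlap (log2 change -0.58, exact two-sided permutation p = 0.333). On the deposited scale each class was lower, 884.6-fold in the genes marked by H3K27me3, 607-fold in those with neither mark and 261.3-fold in those marked by H3K36me3. No input library was used here, and what part of the few remaining reads is unspecific was not tested.

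**Figure D4:**
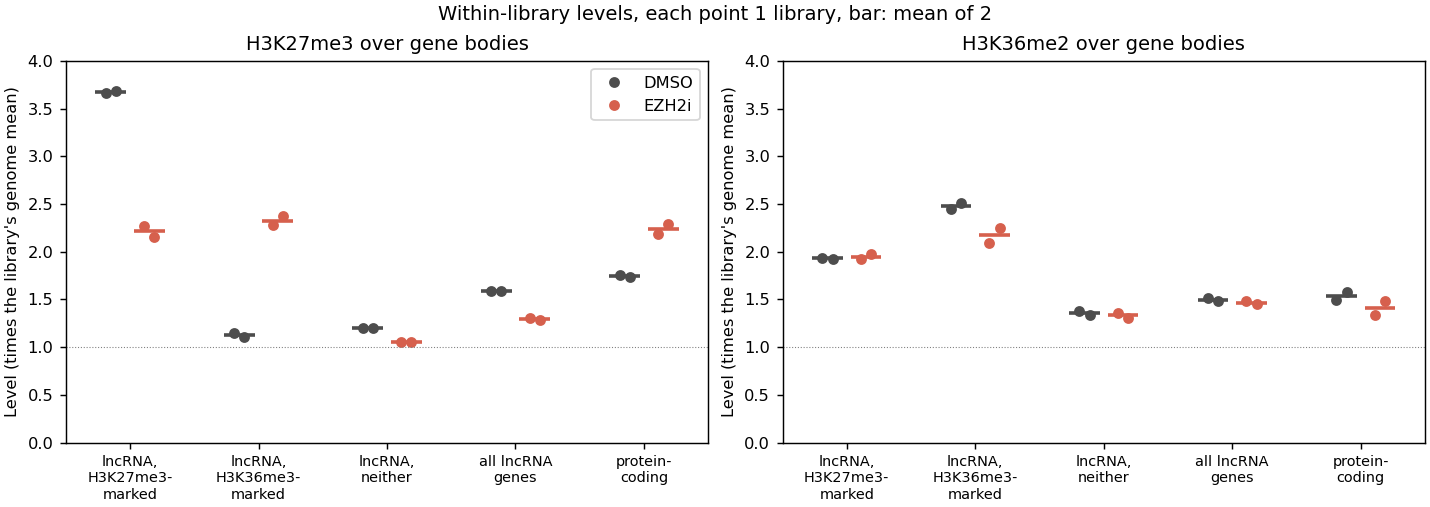
Level over gene bodies relative to the genome mean of the same library (vertical axis) for H3K27me3 (left) and H3K36me2 (right) in 4 sets of lncRNA genes and in protein-coding genes (horizontal axis); points are single libraries (grey, DMSO; red, EZH2i) and bars their means. H3K27me3-marked lncRNA genes are at 3.67 and 3.68 in DMSO and 2.27 and 2.16 after the inhibitor, and H3K36me3-marked ones at 1.15 and 1.10 and then 2.28 and 2.38; in H3K36me2, H3K36me3-marked lncRNA genes are at 2.45 and 2.52 in DMSO and 2.10 and 2.25 after the inhibitor.

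Remaining H3K27me3 at start sites was also read by promoter sequence. At the 147 CpG-rich lncRNA starts the level was 2.79 and 2.79 in DMSO and 2.61 and 2.68 after the inhibitor. At the other 4507 it went from 1.85 and 1.82 to 1.46 and 1.46. CpG-rich coding starts stood at 2.75 and 2.65 in DMSO and at 3.96 and 5.03 after it. The other coding starts had 2.65 and 2.61 in DMSO and 2.45 and 2.65 after it, and these groups overlapped. These differences between kinds of start were not tested. These are levels relative to each library's own genome mean, and the median inhibitor start site of a member rests on 1 read.

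H3K36me2 over lncRNA bodies gave almost no calls between DMSO and inhibitor. By limma 1 of 6094 tested bodies was called higher, where 0.0413% of all 29075 genes tested were, and none lower. An unadjusted p under 0.05 was reached by 190 members and by 436 of all genes tested. By limma-voom 0 members were called, with 171 at that level, against 390 of all genes tested. The gene called by limma was Gm46334 (chr12:12031934-12039401), 222.7 kb from Cyria, with 11.6 and 3.18 scaled reads per window in DMSO and 54.4 and 21.6 with inhibitor. Its log2 change by limma was 2.29 with an SE of 0.51 (adjusted p = 0.0214), and that SE draws on the spread of other genes too. Gm46334 is almost free of the mark, at 0.0749 times the genome mean in untreated cells, and 6 alternative analyses did not call it. None of the listed known lncRNA genes was called, and the median log2 change by list ran from 0.02 in nuclear to 0.30 in imprinted members. Malat1, among the nuclear ones, had 170.3 and 176.3 scaled reads in DMSO and 198.6 and 225.1 after the inhibitor.

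Scaled H3K36me2 levels were slightly higher after the inhibitor, by less than the spread of replicates. The median log2 change was 0.22 over members and 0.09 over all genes tested, and on the scale of library totals it was 0.02 and -0.11, so the sign for all genes depends on the scale. The inhibitor group lay wholly above DMSO in 658 bodies (background 6.83% of all genes, 10.8% of members) and wholly below in 4 (background 0.626%). Library 1 exceeded library 2 in both groups, with genome means of 340.3 and 224.5 in DMSO and 424.7 and 238.2 after the inhibitor. The median change of members turned on single libraries: it was -0.22 without inhibitor replicate 1 and -0.10 without DMSO replicate 2, but 0.54 without DMSO replicate 1 and 0.67 without inhibitor replicate 2. The lncRNA to coding ratio was 1.01 and 0.937 in DMSO and 1.11 and 0.978 with inhibitor (log2 change 0.10, exact two-sided permutation p = 0.667), and these values overlapped. This change was 0.0047 without inhibitor replicate 1, 0.040 without DMSO replicate 2, 0.15 without DMSO replicate 1 and 0.19 without inhibitor replicate 2.

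By class, relative H3K36me2 was 1.93 and 1.93 in DMSO and 1.92 and 1.97 after the inhibitor in genes marked by H3K27me3. It was 2.45 and 2.52 against 2.10 and 2.25 in genes marked by H3K36me3, where the groups did not overlap (log2 change -0.19, exact two-sided permutation p = 0.333). Other sets lay the same way: the 27 genes with both marks had 3.34 and 3.21 against 2.83 and 2.99, and all coding bodies 1.496 and 1.582 against 1.335 and 1.483, also without overlap. Genes with neither mark had 1.38 and 1.34 against 1.36 and 1.31. The ratio of H3K27me3-marked to other lncRNA bodies was 1.39 and 1.42 in DMSO and 1.41 and 1.49 with inhibitor (log2 change 0.04, exact two-sided permutation p = 0.667), a difference within the spread of libraries. At start sites the inhibitor group lay wholly above DMSO in 621 members (background 7.15%) and wholly below in 14 (background 1.61%). There limma called 21 of 4582 higher (background 0.268%) and 1 lower, Gm12381 (background 0.0179%). By limma-voom 0 were called, and on library totals 1. The SE was 0.571 for each of the 22 calls, a spread pooled over genes and not that of the single gene. At some of them the groups overlapped, as at Gm12381 (9 and 3 reads in DMSO, 5 and 0 with inhibitor). Of the 22 calls, 21 were in windows under 0.5 times the genome mean in untreated cells. Over all 22 the median level was 0.0972, with at most 24 reads in a DMSO library (Gm40300, at 0.817). None of the 22 was H3K27me3-marked or H3K36me3-marked.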

How the data were processed

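Trim Galore 0.4.2, Bowtie2 2.2.6.2 and SICER and the builds mm10 and dm3 are named in the submitters' processing notes, without a role or order. The tracks deposited by the authors are on a log2 scale, with 5451088 windows of 1 kb that start every 500 bp and fit the chromosome lengths of GRCm38. After undoing the logarithm, all values of a track (100%, tolerance 0.02) were whole multiples of a fixed step, so window reads were recovered. The step scaled untreated libraries to reads per 1000000; in the quantitative libraries it is assumed to be a spike-in factor of the authors, whose derivation is not given in the sources used here. The peak lists deposited by the authors carry a score per peak, which was not used; only peak positions were. The H3K36me3 peak list was not used here.

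Gene bodies and biotypes came from RefSeq GRCm38.p6 and start sites from its promoter table. Non-overlapping windows with at least 500 bp in a region were averaged. With Python 3.11.15, numpy 2.4.6, pandas 2.3.3 and scipy 1.17.1, levels were divided by the autosomal mean of their library; 1 coding gene at 5 times that mean in all 10 untreated libraries was left out. limma 3.58.1 in R 4.3.3 was fitted per mark on log2(mean scaled reads per window + 1) over all autosomal lncRNA and protein-coding genes of 2 kb or longer with 10 or more window reads over 4 libraries, with Benjamini-Hochberg adjustment over all genes tested and calls at 0.05, and was tested on simulated reads. The SE that limma gives for a gene draws on the spread of other genes too. Ratios within libraries were compared by exact permutation. Alternatives changed the scale, windows, filter, pseudocount, model, block, average, length range and libraries.

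Genes named were the 10 highest members in start-site H3K27me3 and in body H3K36me3, and those at the limits of the rule. Also named were the 5 called members with the greatest change per direction, among those whose groups did not overlap. Up to 4 members with the highest values were named per list of known lncRNAs (imprinted, nuclear, small nucleolar RNA host, microRNA host, pluripotency, developmental). Others are said to have been chosen after their values were seen, or serve as examples from the lists. The members and lists were chosen with earlier results of these data known. Replicates of a group differed by more than sampling noise in all 9 groups (chi-square per degree of freedom 1.77 to 7.17 over member bodies), and each was counted as 1 sample. The labels give no sequencing batch.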

Additional observations from a re-analysis of the deposited data

Results flagged for a closer look

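Chromosome X was outside the rule. Its 154 lncRNA genes of 2 kb or longer that lie clear of coding genes had an H3K27me3 body level of 0.458 times the autosomal mean in untreated cells (0.430 and 0.487 in the 2 libraries, 22799 window reads), where a count of 0 would allow up to 3 reads. The other marks were similarly low there, with 0.428 for H3K27me1, 0.430 for H3K27me2, 0.465 for H3K36me2 and 0.348 for H3K36me3. The low level was thus not particular to H3K27me3. Levels were not corrected for the number of X copies in these cells, whose part was not tested.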

How the results depend on the processing

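Of the main comparisons, 77 alternative values stayed near the reported one (a change in a ratio of the same sign, a count within 1.5 times, an untreated ratio within 1 SD), 25 moved and 5 reversed. The first set includes H3K27me3 bodies after median centring, where 1740 of 4851 calls were higher (12158 of 24622 over all genes tested). It also includes changes in ratios whose size differed by over 1.5 times. For untreated lncRNA to coding ratios (log2), the median over genes gave 1.06 for H3K27me3 bodies, 1.43 for H3K27me3 start sites (reversed) and -1.40 for H3K36me3 bodies, and genes of matched length range 0.048, 0.043 (reversed) and -1.79. The H3K36me2 ratio of marked to other lncRNA bodies reversed with the median over genes (-0.016), was 0.00069 with reads summed, and was -0.0031 to 0.081 without single libraries, the lowest without EZH2i replicate 2. Levels by class relative to the genome mean, and their alternatives, were added after seeing the data, while the ratios of marked to other bodies were not. Relative H3K27me3 over all lncRNA bodies changed by -0.30, and by -0.17 with the median; relative H3K36me2 turned to 0.020 over all lncRNA bodies and 0.058 over those with neither mark with the median, and to 0.035 and 0.046 with reads summed. Without single libraries it was -0.052 to 0.0045 in genes with neither mark and -0.0052 to 0.031 in H3K27me3-marked genes, and in both the sign turned without EZH2i replicate 2. The cause of these shifts was not tested.

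On library totals, H3K27me3 calls were 924 bodies and 0 start sites (902 at an unadjusted p under 0.05). Over all genes tested they were 9538 bodies and 0 start sites (5762 at that level). On simulated reads that scale also called unchanged genes. Start-site calls numbered 2531 of 4218 after median centring, against 14682 of 19864 over all genes. They were 2111 of 2111 where all 4 libraries had reads, against 13044 of 13044, which tests fewer genes. H3K36me2 body calls were 0 on library totals, after median centring, with all windows every 500 bp and by limma-voom (1656, 1524, 186 and 171 at an unadjusted p under 0.05), 8 with a pseudocount of 0.1, and 0 to 10 without single libraries. The 1 call without EZH2i replicate 1 was lower. H3K36me2 start-site calls were 1 on library totals and after median centring, 13 with all windows, 5 where all 4 libraries had reads, 0 by limma-voom (129 at an unadjusted p under 0.05), and 1 to 40 without single libraries, with 1 without DMSO replicate 2, 3 without EZH2i replicate 1 and 40 without EZH2i replicate 2. Where 1 library is left in a group, it is assumed to vary like the other group. Over all genes tested, H3K36me2 bodies at an unadjusted p under 0.05 numbered 5672 on library totals and 4349 after median centring. They numbered 443 with all windows and 390 by limma-voom, and start sites by limma-voom 267.

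With the replicate number as a block, H3K36me2 calls were 1661 of 6094 bodies (1649 higher) and 217 of 4582 start sites (216 higher). Over all genes tested they were 4422 of 29075 bodies (4373 higher) and 462 of 22389 start sites (456 higher). H3K27me3 calls were 6005 of 6006 bodies and 4218 of 4218 start sites, against 28656 of 28667 and 19860 of 19864 over all genes. The samples share only a number: with 2 pairs, the correlation of same-numbered deviations was 0.319 for H3K36me2 and 0.031 for H3K27me3. The median difference of replicate 1 minus replicate 2 was 0.633 in DMSO and 0.889 with inhibitor for H3K36me2. For H3K27me3 it was 0.435 and 0.027.

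Depth limits H3K27me3 after the inhibitor most: 786 and 383 of 6154 bodies, and 2076 and 1301 of 4654 start sites, held 0 window reads in the 2 libraries, so single-gene levels there were not detectable.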
